A study of Mus musculus with 8 samples.

Results

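The regions described here are H3K36me3 peaks of control mouse embryonic stem cells that lie between genes and that still met a called peak after Setd2 knockdown. They were taken from the deposited control peak table as peaks on chromosomes 1 to 19 whose midpoint lay in no RefSeq gene of any biotype and that shared 1 bp or more with a peak of the knockdown table. The rule gave 859 kept sites out of 4142 intergenic control peaks on these chromosomes and 30634 control peaks in all. The other 3283 intergenic peaks, which met no knockdown peak, are called lost. The sites were thus chosen by a measured value, the overlap of called peaks, so the overlap and the tag density and length of the peaks are given as descriptions, with no test.

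The study comprised 8 libraries, with 2 replicates each of H3K36me3 ChIP and of input from control and from knockdown cells. All cells carried a doxycycline-inducible Setd2 knockdown and grew feeder-free as spheres in serum-free 2i medium with 1 µM PD0325901, a MEK inhibitor, 3 µM CHIR99021, a GSK3 inhibitor, and 1000 U/ml LIF. Doxycycline was left out for the control cells and given at 1 µg/ml over 4 days for the knockdown. A knockdown lowers a transcript and does not delete the gene. Replicates were merged for peak calling, with 36244210 tags kept in control and 29416169 in knockdown, so there is 1 list a condition, no spread between replicates and no test between conditions. As a check of the labelled cell type, 9 of 10 embryonic stem cell marker genes had a control peak, Dppa5a being the exception, against 0 of 8 fibroblast, 0 of 5 hepatocyte and 1 of 4 neuronal markers (Tubb3, over 19.1% of its length).

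H3K36me3 is histone H3 with 3 methyl groups on lysine 36. Setd2, its main writer in mammalian cells, travels with elongating RNA polymerase II, so the mark builds up over the bodies of transcribed genes and toward their 3′ ends. Peaks outside annotated genes can mark transcription that runs past gene ends or that starts outside the annotated genes.

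Only 7 of the 859 kept sites (0.815%) held a whole promoter window of the RefSeq promoter table (GRCm38.p6), against 32 of 3283 lost ones (0.975%). No genome sequence was used, so the sequences shown are limited to such windows and to a microRNA inside a kept site. The 3 windows printed belong to the protein-coding genes among the 7, and each is the stretch of 250 bases before the annotated gene start, on the plus strand, with CG dinucleotides in capitals. The zinc finger gene Zfp872 (chr9:22187916-22188165) and the predicted gene LOC666331 (chr11:101610450-101610699) had their windows inside both the control and the knockdown peak. For Prpf39 (chr12:65036084-65036333), which encodes a splicing factor of the U1 snRNP, the window lay inside the control peak and ran past the end of the knockdown peak at 65036309.
Zfp872: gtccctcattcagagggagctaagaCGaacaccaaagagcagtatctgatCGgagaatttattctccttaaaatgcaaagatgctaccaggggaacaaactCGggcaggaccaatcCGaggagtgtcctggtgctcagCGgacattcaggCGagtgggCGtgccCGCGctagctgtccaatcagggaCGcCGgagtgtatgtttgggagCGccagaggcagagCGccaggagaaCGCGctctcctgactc
LOC666331: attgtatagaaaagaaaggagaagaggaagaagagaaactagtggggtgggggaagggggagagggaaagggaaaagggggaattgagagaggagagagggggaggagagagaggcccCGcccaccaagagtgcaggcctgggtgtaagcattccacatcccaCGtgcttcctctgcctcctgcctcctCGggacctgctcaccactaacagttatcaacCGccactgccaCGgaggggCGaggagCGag
Prpf39: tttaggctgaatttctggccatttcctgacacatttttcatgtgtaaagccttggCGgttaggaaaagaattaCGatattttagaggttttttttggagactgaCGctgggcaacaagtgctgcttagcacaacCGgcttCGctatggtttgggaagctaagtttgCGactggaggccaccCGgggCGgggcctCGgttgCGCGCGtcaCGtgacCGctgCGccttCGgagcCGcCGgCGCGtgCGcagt

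The motif CG, which reads the same on both strands, was found 15 times in the Zfp872 stretch, 7 times in that of LOC666331 and 21 times in that of Prpf39. Over all 32851 windows of the table, cut to the same length, the median was 6 and 92.1% held at least 1. The other 4 windows belonged to the long non-coding RNA genes Gm51939, Gm34502, Gm31015 and Gm15614 and held 6, 1, 2 and 0. The Zfp872 site was a control peak of 2748 bp with 143 tags, which met a knockdown peak of 2340 bp with 93 tags. The Prpf39 site held 136 tags over 2229 bp in control and 88 over 2072 bp in knockdown. One kept site held a microRNA gene, Mir7217, at chr17:27355738-27355799, inside both the control and the knockdown peak. The control peak held 131 tags over 2291 bp and the knockdown peak 154 tags over 3428 bp. These counts are not scaled for depth or length. Scaled for both, the knockdown density was 0.968 times that of control. The mature arms of Mir7217 are shown with the seed, bases 2 to 8, in capitals, and the seeds of the arms differ.
mmu-miR-7217-5p: aACUUGUAucuugugagacagaagg
mmu-miR-7217-3p: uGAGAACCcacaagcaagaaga

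The first comparison asked how much of each site was still under a peak after knockdown. Of all control peaks 6.52% met a knockdown peak, and on chromosomes 1 to 19 it was 6.55%. For intergenic control peaks the share was 20.7% (859 of 4142, exact binomial 95% interval 19.5 to 22) and for genic ones 4.32% (1138 of 26357, 4.08 to 4.57). All intervals cover counting error only, since neighbouring peaks and tags are not independent. The share was higher for intergenic than for genic peaks on 19 of 19 chromosomes, from 14.4% on chromosome 19 to 29.5% on chromosome 6. Kept intergenic sites made up 43.0% of all control peaks that met a knockdown peak on these chromosomes.

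The kept sites held 934 knockdown peaks, 30.7% of the knockdown peaks on chromosomes 1 to 19, and 908 of these also had their midpoint outside genes. Most sites (775 of 859) met 1 knockdown peak, 77 met 2 and 7 met 3 or 4. The control peaks spanned 2.70 Mb in sum, and knockdown peaks covered 1.60 Mb of it, or 59.3%. Median cover of a site was 65.7% (quartiles 47.9% and 80.8%, range 1.28% to 100%). At 618 sites (71.9%, 68.8 to 74.9) the cover was 50% or more, and at 39 sites it was complete. Among kept genic peaks 34.7% (31.9 to 37.6) were covered to 50% or more, with a median of 35.6%.

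Control peak length went with this difference. In the length class of 1500 to 2000 bp, the median cover was 78.2% at 179 kept intergenic sites and 77.0% at 75 kept genic peaks. From 2000 to 3000 bp it was 64.0% and 62.1%. Above 3000 bp it was 52.5% at 336 intergenic sites and 27.7% at 869 genic peaks, but the genic peaks of that class were longer, with a median of 7779 bp against 4140 bp. Across the kept sites, control length and cover had a Spearman correlation of -0.40 (n = 859 sites of the same 2 lists).

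**Figure D1:**
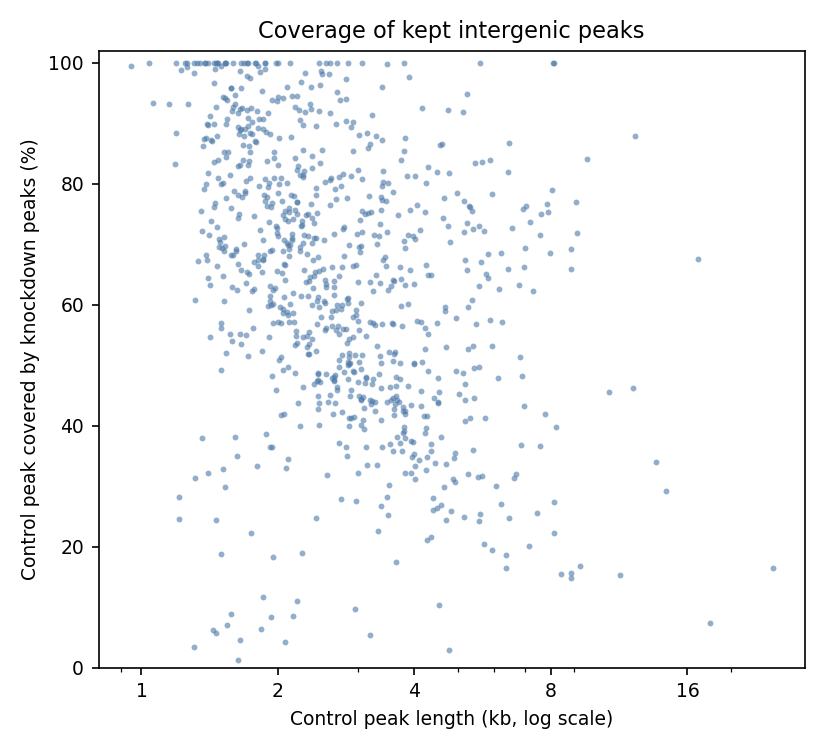
Percent of each kept intergenic control peak covered by knockdown peaks (vertical axis) against control peak length in kb (horizontal log axis), 1 point per site for 859 sites. Points spread from 1.28% to 100%, with a median of 65.7%, and sites above 3000 bp have a median of 52.5%.

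The second comparison set tag density side by side at the same sites. Tags per kb were divided by the genome mean, the kept tags per kb of effective genome, which was 19.4 in control and 15.7 in knockdown. This takes unequal depth into account, but each density is relative to the mean of its own condition. A ratio scaled in this way does not show how far the level of the mark changed over the whole genome. A median ratio near equality therefore cannot be read as an almost unchanged level, and the absolute level was not tested. The control peaks of the kept sites held 1.71 to 10.3 times the genome mean, with a median of 2.51 (quartiles 2.25 and 2.79). The knockdown peaks there held 1.92 to 8.0 times, with a median of 2.37 (2.24 and 2.54). Peaks below the caller's threshold are not listed, which sets a lower limit on both densities, and each density covers its own peak, not the same bases. In bulk chromatin, loss of the mark from some cells and a lower level in all cells cannot be told apart.

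The ratio of knockdown to control density had a median of 0.95 (quartiles 0.861 and 1.04), with a range of 0.472 to 1.54. It was above 1 at 304 of 859 sites (35.4%, 32.2 to 38.7). At kept genic peaks the median ratio was 0.753 and it was above 1 at 13.8% (11.8 to 15.9), with a knockdown density of 2.37 times the genome mean, as at the intergenic sites, and a control density of 3.20. The ratio fell along the length classes of the kept sites, with medians of 1.07, 1.03, 0.956 and 0.875 from up to 1500 bp to above 3000 bp. Kept genic peaks had medians of 1.11, 1.03, 0.938 and 0.709 in the same 4 classes. The genic value was the lower by most above 3000 bp, the class that held 869 of the 1138 genic peaks and where these were longer than the intergenic ones, as given above. Over the sites, control and knockdown density had a Spearman correlation of 0.40 (n = 859, same 2 lists). By chromosome the median ratio at kept sites lay between 0.861 on chromosome 7 and 0.985 on chromosome 6.

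**Figure D2:**
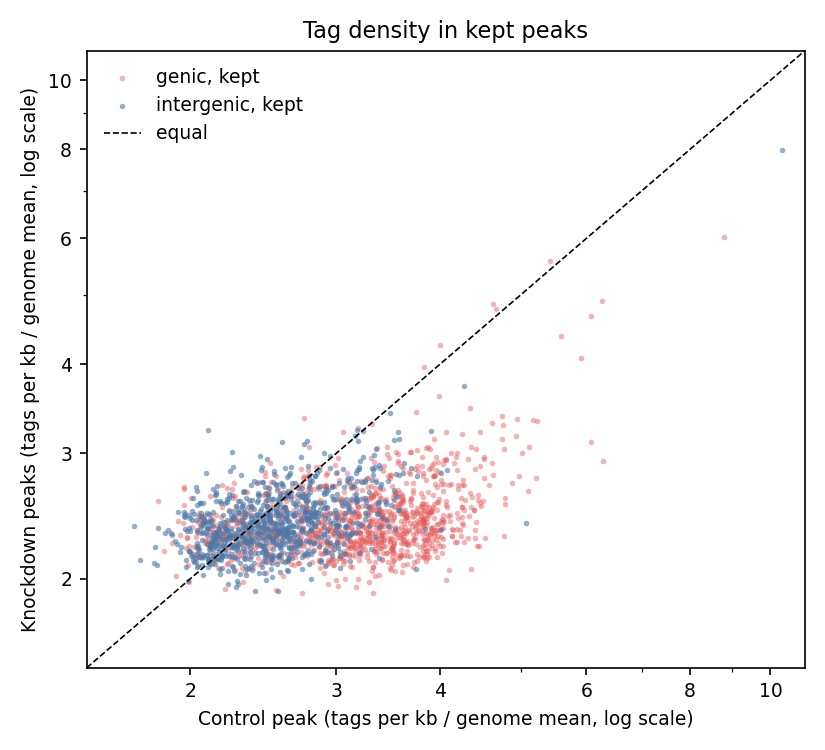
Tags per kb over the genome mean in knockdown peaks (vertical) against the control peak they meet (horizontal), both on log axes, for 859 kept intergenic sites (blue) and 1138 kept genic peaks (red), with a dashed line of equal density. Intergenic points have medians of 2.51 in control and 2.37 in knockdown, and genic points lie farther right, with a control median of 3.20.

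The called peaks were shorter after knockdown. Unlike density, length and cover were not scaled for depth. The knockdown list was called from fewer kept tags, 29416169 against 36244210 in control, at the same p cutoff. The part of depth in the lengths and in the cover was not tested. Kept sites had control peaks of 947 to 24671 bp with a median of 2603 bp (quartiles 1897 and 3728). The knockdown peaks at a site summed to 945 to 11593 bp with a median of 1709 bp. The median ratio of the lengths was 0.731 (quartiles 0.556 and 0.925), and at 156 sites (18.2%, 15.6 to 20.9) the knockdown peaks were the longer. Those 156 are not a sample of all sites, since a short control peak leaves more room for a longer partner. Depth-scaled, the knockdown peaks held a median of 67.8% of the tags of the control peak (quartiles 48.9% and 92.3%). Tags in stretches no longer called are not in this number. The summits of the control peak and of the knockdown peak with most shared bases lay 519 bp apart in the median, and within 300 bp at 310 sites.

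Kept sites also differed from lost ones in control. Lost intergenic peaks had a median length of 1810 bp, 79 tags and 2.23 times the genome mean, against 2603 bp, 128 tags and 2.51 times at kept sites. Length bears on the rule itself, because a long peak can meet another over 1 bp in more places. The kept share rose from 8.37% (6.63 to 10.4) of intergenic peaks up to 1500 bp to 40.05% (36.7 to 43.5) of those above 3000 bp. For genic peaks it went from 1.08% to 7.89%. By density, in 4 classes of equal size, it rose from 9.17% in the lowest to 41.4% in the highest.

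The third comparison asked where kept and lost sites lay relative to genes. Kept sites were farther from genes. Their midpoint lay 0.025 to 317 kb from the nearest annotated gene, with a median of 11.9 kb (quartiles 4.95 and 27.0), and that of lost sites had a median of 7.09 kb (1.61 and 19.2). The median distance was 1.68 times as large, and larger for kept sites on 19 of 19 chromosomes. To the nearest protein-coding gene the medians were 31.7 kb and 15.1 kb. The distance took no part in the choice of kept among intergenic peaks, but peaks of 1 list are not replicates, so no test was made. Within 1 kb of a gene lay 47 kept sites (5.47%, 4.05 to 7.21) and 644 lost ones (19.6%, 18.3 to 21.0). Beyond 10 kb lay 56.0% (52.6 to 59.3) of kept and 41.1% (39.4 to 42.8) of lost sites.

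Read as a kept share, 6.80% (5.04 to 8.94) of intergenic peaks within 1 kb of a gene were kept, against 4.32% of genic peaks. The share was 18.5% from 1 to 5 kb, 23.0% from 5 to 10 kb, 27.0% (24.7 to 29.3) from 10 to 50 kb and 23.8% (19.6 to 28.3) beyond, where the intervals overlap. The step next to genes was present in each length class. Above 3000 bp, 13.5% of peaks within 1 kb and 55.3% of those at 10 to 50 kb were kept, and up to 1500 bp it was 0.943% and 9.91%. Kept sites had the larger median distance in all 4 length classes, from 9.88 against 2.64 kb above 3000 bp to 13.9 against 8.50 kb up to 1500 bp, and in all 4 classes of density. When only peaks 5 kb or more from any gene were taken, the medians came closer, at 1.14 times. Among the kept sites themselves the density ratio varied little with distance, with medians of 0.903 within 1 kb to 0.989 beyond 50 kb. Its Spearman correlation was 0.12 with distance and -0.58 with control length (n = 859, same 2 lists). These classes were not of like length, with control medians of 3499 bp within 1 kb and 2333.5 bp beyond 50 kb.

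**Figure D3:**
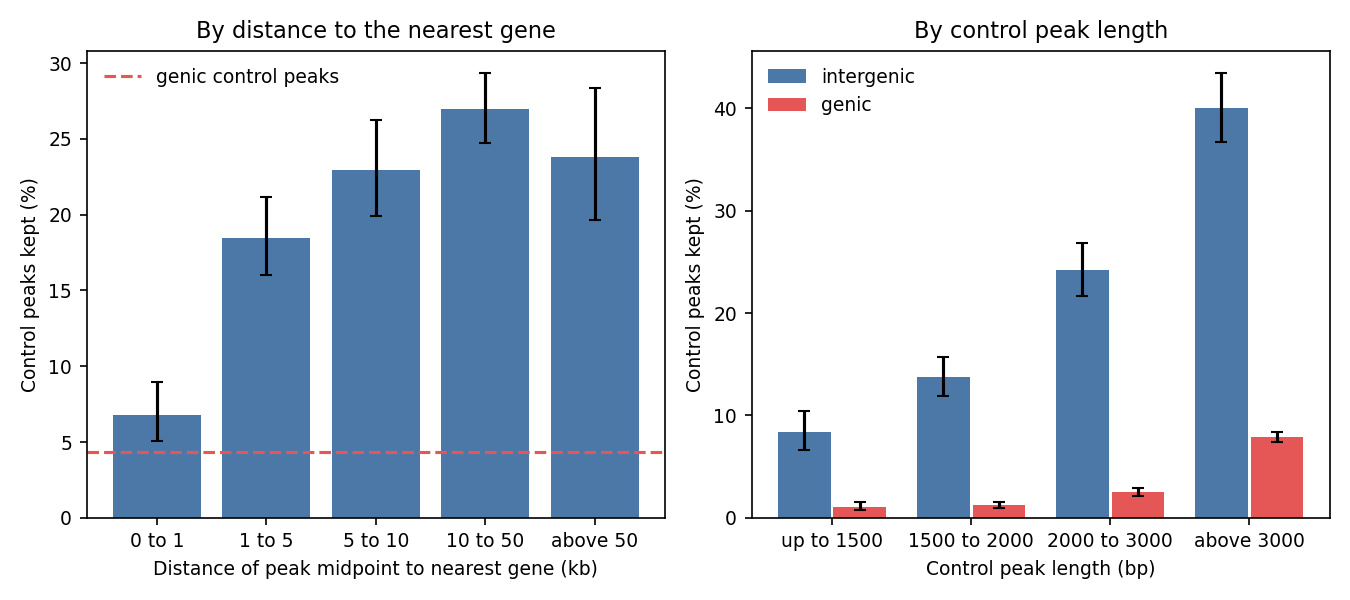
Percent of control peaks met by a knockdown peak (bars, with exact binomial 95% intervals), left for intergenic peaks by distance to the nearest gene in kb, with a dashed line for genic peaks, right by control peak length in bp for intergenic and genic peaks. The share is 6.80% within 1 kb of a gene and 27.0% at 10 to 50 kb, and in each length class the intergenic bar stands above the genic one.

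**Figure D4:**
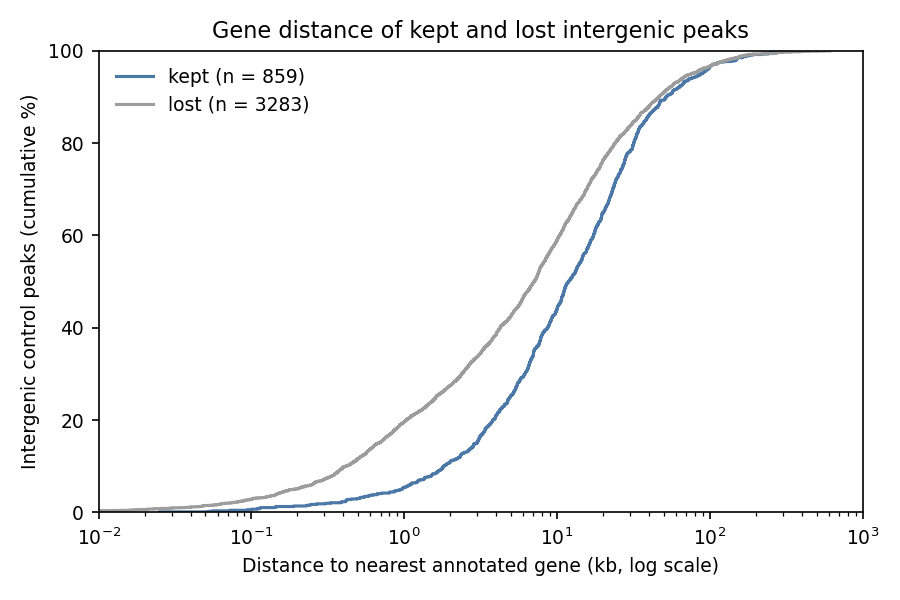
Cumulative percent of kept (859) and lost (3283) intergenic control peaks by distance to the nearest annotated gene (log axis, kb). The kept curve runs to the right of the lost one over most of the range, with medians of 11.9 and 7.09 kb, and they come together at the far end.

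Lost sites next to genes lay mostly on the 3′ side. The promoter table gave a strand for the nearest gene of 448 kept and 1961 lost sites. Within 5 kb of such a gene, 761 of 947 lost sites (80.4%, 77.7 to 82.8) were past its 3′ end, and 69 of 111 kept sites (62.2%, 52.5 to 71.2). A genic control peak lay within 5 kb of 7.57% of kept sites (5.89 to 9.54) and of 21.5% of lost sites (20.1 to 23.0). The nearest protein-coding gene held a control peak for 54.8% of kept and 58.5% of lost sites, with overlapping intervals, and a knockdown peak for 14.3% (12 to 16.8) and 8.80% (7.86 to 9.82).

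By kind, the nearest gene of a kept site was protein-coding in 322 cases (37.5%, 34.2 to 40.8), a long non-coding RNA gene in 245 (28.5%) and a pseudogene in 226 (26.3%). For lost sites these shares were 53.4% (51.7 to 55.1), 22.9% and 18.1%. Correspondingly 15.5% of intergenic peaks nearest to a protein-coding gene were kept, 24.5% of those nearest to a long non-coding RNA gene and 27.6% of those nearest to a pseudogene. Numbered Gm genes, predicted models without a given name, were nearest to 442 kept sites (51.5%, 48.1 to 54.8) and to 38% (36.3 to 39.7) of lost sites.

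Named gene groups took few sites. Zfp zinc finger genes were nearest to 13 kept and 42 lost sites, 1.51% and 1.28% of each. Olfactory and vomeronasal receptor genes were nearest to 16 and 65 (1.86% and 1.98%), ribosomal protein genes and their pseudogenes to 14 and 36 (1.63% and 1.1%), and Mir genes to 7 and 32. The intervals of kept and lost shares overlapped in each of these groups. Genes of a list of naive pluripotency genes were nearest to 1 kept site (0.116%, 0.00295 to 0.647) and 11 lost sites (0.335%, 0.167 to 0.599), again with overlapping intervals. The H3K36 methyltransferase genes were nearest to 0 kept sites and 1 lost site (0% and 0.0305%). Trim28 and Setdb1 were nearest to none.

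That pluripotency gene was Klf2, a transcription factor of the naive state. Its site (chr8:72319190-72324345) started inside the gene, with the midpoint 0.113 kb outside. It held 308 tags in control, 3.08 times the genome mean (Poisson 95% interval 2.75 to 3.45). The knockdown peak there held 48 tags over 1288 bp, 2.37 times (1.75 to 3.14), and covered 25% of the control peak. It ran from 72320585 to 72321872 and the gene ends at 72321654, so most of the knockdown peak, with its midpoint, lay inside Klf2.

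Among the zinc finger neighbours the density ratio varied. At Zfp33b on chromosome 5 the control peak started inside the gene. It held 900 tags over 12119 bp, 3.83 times the genome mean (3.59 to 4.09). The 2 knockdown peaks, of which the first also started inside the gene, held 207 tags, 2.35 times (2.04 to 2.69). Next to Zfp985 in the zinc finger cluster of chromosome 4 (chr4:147549098-147552510) the densities were 3.17 (2.76 to 3.63) and 3.23 (2.74 to 3.79), which do not differ beyond counting error. The caller's scores there imply unlike local backgrounds, 2.02 times the genome mean in control and 1.18 in knockdown. The caller fold over local background was 3.31 and 4.78. Next to Zfp936 on chromosome 7 the densities were 3.62 and 2.90, and next to Zfp420 3.19 and 2.17. The density ratio of the 13 sites lay between 0.613 and 1.09.

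The sites with the most shared sequence were long in both lists. At chr7:26688798-26705702, 10.8 kb from the cytochrome P450 gene Cyp2b23, 4 knockdown peaks covered 11433 of 16905 bp, at 2.57 times the genome mean against 3.26 in control. At chr6:37828563-37840802 they covered 10753 of 12240 bp. The sites at chr1:36038290-36047880, nearest to the lncRNA gene Gm39624, and at chr10:11254676-11263767, 22.1 kb from the F-box gene Fbxo30, were covered to 84.0% and 77.1%. The site at chr18:80000601-80008666, of 8066 bp, was covered whole by a knockdown peak of 10461 bp, which held 472 tags against 413. These counts are not scaled for depth or length. The densities were 2.64 times the genome mean in control and 2.87 in knockdown. The caller's score was lower in knockdown, 86.3 against 298.

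The densest kept site, at chr12:20226499-20234617 near Gm32719, stood apart, since the next held 5.08 times the genome mean. It held 1624 tags in control, 10.3 times the genome mean (9.82 to 10.8), and 1022 in knockdown, 8.0 times (7.51 to 8.50), over 8119 and 8125 bp with the same first base. Its caller fold over local background was 4.66 and 4.88 in the authors' tables. The scores imply a local background of 5.84 and 3.74 times the genome mean, although this derivation is less exact for peaks of that length. The site at chr4:147535564-147539375, near the pseudogene Gm13141, had 4.28 and 3.73 times the genome mean in the peaks and 2.93 and 2.30 in the implied background. The sites near Bst1 (chr5:43852167-43860042), which encodes an ectoenzyme of NAD metabolism, and near Gm33971 (chr16:64886105-64891795) had control densities of 4.07 and 4.01 and knockdown densities of 2.84 and 2.82.

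Among the 682 sites with 50 or more tags in both lists, the lowest density ratios, 0.472 and 0.586, were at a pair of long peaks in 1 stretch of chromosome 10. The longest, at chr10:83361856-83386526 over part of D10Wsu102e, had 2429 tags over 24671 bp, 5.08 times the genome mean (4.88 to 5.29). In knockdown 2 peaks of 4060 bp in sum held 153 tags, 2.40 times (2.03 to 2.81), and covered 16.5% of it. Its neighbour at chr10:83404814-83418431 went from 4.00 to 2.35 times and stayed covered over 34.0%. A further peak of the same stretch, at chr10:83474550-83492521 over one end of the mitochondrial folate enzyme gene Aldh1l2, kept 7.39%. At a peak that reached into Cops7a, a gene of the COP9 signalosome, 29.2% of 14320 bp stayed covered. Near Rdm1 on chromosome 11 the density went from 3.52 (3.12 to 3.97) to 2.35 (1.84 to 2.95).

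Among the same 682 sites the highest ratio, 1.54, was at chr11:7535982-7537850, 104 kb from the nearest gene, Gm36720. Its control peak held 76 tags over 1869 bp, 2.10 times the genome mean (1.65 to 2.63). The knockdown peak held 155 tags over 3045 bp, 3.24 times (2.75 to 3.79), so the intervals do not overlap. The next 4, near Gm15529, Gm29800, Selenoi and Mtus2, had ratios of 1.39, 1.35, 1.34 and 1.32, with intervals that overlap between the lists. These were picked as the extremes of 682 ratios.

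The kept sites farthest from any gene were of ordinary density. At chr18:18849363-18852413, 317 kb from Gm31086, the control density was 2.18 times the genome mean with 129 tags, and the knockdown density 2.07 with 44 tags. At chr13:86345740-86348008, 300.1 kb from Cox7c, a gene of respiratory complex IV, they were 2.50 and 2.33. At chr4:27139577-27141723, 283 kb from Gm42264, they were 2.60 and 2.35, with 94.5% of the control peak still covered and the summits 25 bp apart. A second site near Gm42264 and one near Gm29785 on chromosome 9 had ratios of 1.05 and 1.02.

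Many kept sites stood in groups. Chained at gaps of 100 kb or less, 383 of 859 (44.6%, 41.2 to 48.0) had a kept neighbour, and 48 chains held 3 or more sites. Lost sites had a lost neighbour more often, in 56.0% of cases. They are also more numerous, and no comparison at equal numbers was made. The largest chain of kept sites held 11, over 159914 bp of chromosome 6 from 37692355 to 37852268. The midpoint of its last site lay 19.5 kb from Trim24, a gene for a bromodomain cofactor of transcription, and the annotated genes inside the span were the lncRNA gene Gm38791 and the pseudogene Atp6v0c-ps2. Control peaks covered 49.5% of this span and knockdown peaks 30.0%. Densities at its sites were 2.50 to 3.61 times the genome mean in control and 2.26 to 2.96 in knockdown. Knockdown cover was complete at 2 of the 11 sites and lowest, at 39.8%, at the site that reached into Atp6v0c-ps2.

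**Figure D5:**
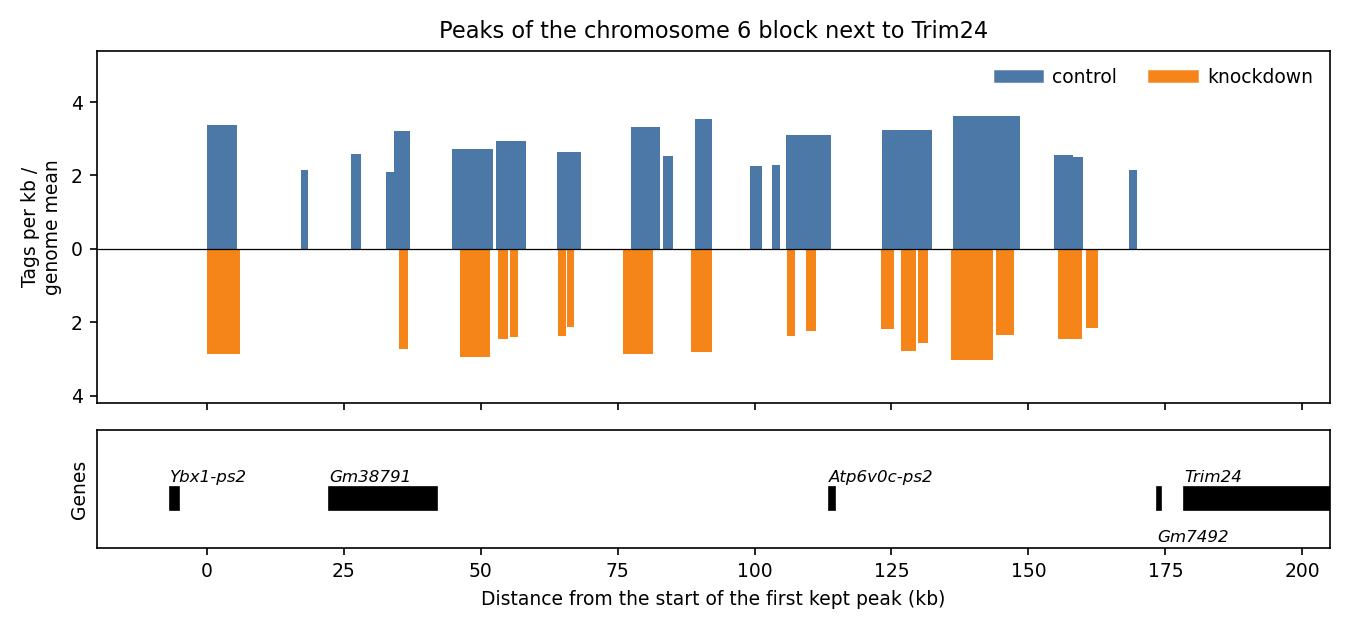
Control peaks (blue, upward) and knockdown peaks (orange, downward) over the chromosome 6 chain next to Trim24, drawn to scale by distance in kb from the start of its first kept peak, with height as tags per kb over the genome mean and annotated genes below. Blue boxes cover 49.5% of the 159914 bp chain and orange ones 30.0%, and the tallest blue box is 3.61.

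Another chain held 7 kept sites over 160293 bp of chromosome 16 from 9106822, where control peaks covered 14.5% and knockdown peaks 12%. Its first site held 189 tags in control and 124 in knockdown, 3.23 (2.78 to 3.72) and 2.96 (2.46 to 3.53) times the genome mean. A pair of chains held 6 each. That on chromosome 17 from 27290012 includes the Mir7217 site printed above and ends at a site 6.51 kb from Grm4, a glutamate receptor gene. Knockdown peaks covered more of its span than control peaks, 20.8% against 16.7%, and the ratio at its 6 sites was 0.876 to 1.06. On chromosome 9 from 3947551, past the guanylate cyclase gene Gucy1a2, cover was 16.7% in control and 5.74% in knockdown.

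Local background at the kept sites was read from the caller's score, which is a Poisson tail of the tags on the expected count. Only control peaks up to 4000 bp were used, 79.3% of kept and 93.9% of lost ones. For these 681 kept peaks the background had a median of 1.00 times the scaled genome mean (95th percentile 1.28). The caller takes the genome mean as its lowest expected count, so a local background below that mean cannot be read from this median. The median therefore does not show an ordinary background. The derived value was below that mean by more than 1% at 8.81% of kept and 10.6% of lost sites. A strict floor would not give such values, so the derivation is not exact. The background was within 1% of that mean at 56.5% of kept and 63.4% of lost sites. It was above that mean by more than 1% at 34.7% (31.1 to 38.4) of kept and 25.9% (24.4 to 27.5) of lost sites. A background above 1.5 times was found at 8 kept (1.17%, 0.508 to 2.30) and 9 lost sites (0.292%, 0.134 to 0.553). Without longer peaks and those above 1.5 times, 673 sites were kept and the median distance to genes was 1.77 times that of lost sites. Among peaks up to 4000 bp the limit removed only those 8 kept and 9 lost sites, so it could hardly change this value. The part of background in the distance was not tested. The handling of reads that match several places was not analysed here, and its part in the kept share was not tested.

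At the edge of the rule, the smallest shared lengths were 21, 44 and 75 bp, at chr10:24018659-24020293, chr18:18975476-18976781 and chr9:123141093-123142739. Their tag densities were 42.2, 38.3 and 39.5 per kb. The nearest lost peaks were 1, 43 and 57 bp from a knockdown peak and held 44.4, 44.8 and 39.9 tags per kb. Only 6 kept sites shared under 100 bp, and 71 of 3283 lost ones had a knockdown peak within 1 kb. The kept site nearest to a gene had its midpoint 25 bp from Gm51939, and the next lay 52 bp from Sharpin, a gene of the linear ubiquitin ligase complex.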

How the data were processed

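The submitters' processing notes name mm10, Bowtie 1.1.2 and FastQC 0.11.5. Peak calling by the authors, per the file headers, was by MACS 1.4.2 on merged replicates against merged inputs (p cutoff 1e-05, 1 tag per position, effective genome size 1.87e+09, fragment length 294 bp, local background over 1000 and 10000 bp). The deposited tables give, per peak, the count of tags (not normalized), a score of minus 10 times the log10 p, a fold ratio over local background and, in percent, an empirical FDR. The control and knockdown ChIP libraries held 42509111 and 38670982 tags before removal of duplicates, and the inputs kept 35134297 and 33403964 tags.

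Genes came from a RefSeq table of GRCm38.p6. Densities were divided by kept tags per kb of the effective genome. Where knockdown peaks were several, tags and lengths were summed. Expected tags were solved from score and tags, scaled to the smaller library and rounded down. With fold and fragment length they gave summit heights within 0.15 of a whole number for 89.6% of the kept control peaks up to 4000 bp, and 82.5% of their knockdown peaks. Shares carry exact Clopper-Pearson 95% intervals, densities of named sites exact Poisson ones. Overlap, distance and background functions were tested on simulated data. Python 3.11.15, pandas 2.3.3 and scipy 1.17.1 were used.

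The members, lists and rules were chosen with earlier results of these data known. Named are the 6 sites with most shared bases, the 6 densest, the 5 highest and 5 lowest ratios among sites with 50 or more tags in both lists, the 5 farthest from genes, the 5 longest and the largest chains. Klf2, zinc finger, promoter and edge sites were named after their values were seen.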

Additional observations from a re-analysis of the deposited data

How the results depend on the processing

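No paired analysis was possible because the authors merged the replicates before calling peaks, and for the same reason no replicate could be left out. No alternative brought a ratio of density or length to or above 1 or the kept sites nearer to genes than the lost ones. The number of kept sites was 556 at a reciprocal overlap of 50%, 286 with scores of 100 or more and 142 with an FDR of 1% or less. That FDR filter leaves the 588 knockdown peaks with scores up to 59.2, since the deposited FDR rises with the score there. The kept share was 14.9% with 50% of the control peak covered, 13.4% at reciprocal 50%, 13.9% at scores of 100 or more, 3.43% at FDR of 1% or less, 23.2% for peaks wholly outside genes, 25.4% at 5 kb or more from genes and 18.0% with the background limit, which was chosen after seeing the data. In that order of settings, where it moved, the median density ratio was 0.97 (50% covered), 0.979 (reciprocal), 0.909 (FDR) and 0.978 (background), and it was 0.848 scaled by all tags before removal of duplicates and 0.771 without scaling. The median length ratio was 0.799 (50% covered), 0.796 (reciprocal), 0.567 (FDR), 0.764 (background) and 0.690 with 1 knockdown peak a site. The median distance was 14.1 kb (wholly outside genes), 18.7 kb (5 kb or more), 32.1 kb with protein-coding genes alone, 10.6 kb from the end of the peak and 31.7 kb to protein-coding genes. The distance of kept over lost sites was 1.45 (FDR), 1.35 (wholly outside), 1.14 (5 kb or more), 1.99 (protein-coding genes alone) and 2.10 (to protein-coding genes). The cause of these moves was not tested. Depth limits single sites: the median kept site rests on 128 control and 64 knockdown tags.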

Other observations

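Kept sites lay nearer to the start of their chromosome, which in mouse autosomes is the centromeric end, than lost intergenic sites. Position was taken as the midpoint over the end of the last annotated gene of the chromosome. The median was 35.4% for kept and 46.6% for lost sites, and it was lower for kept sites on 15 of 19 chromosomes. On chromosome 11 the medians were 22.1% and 48.7%, on chromosome 9 they were 24.9% and 47.3%, and on chromosome 19 they were 62.6% and 52.4%. Neighbouring sites are not independent, and no test was made.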
